A study of Mus musculus with 18 samples.

Results

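Cohesin was mapped in mouse splenic B cells cultured for 48 h with lipopolysaccharide and interleukin 4, and the sites described here are those that carried a RAD21 peak in both replicate 1 and replicate 3 of that time point. A site was formed wherever a peak of one list shared at least 1 bp with a peak of the other. This gave 639 sites, out of 2462 sites with a peak in either of the 2 replicates and 15225 over the 9 replicate lists of the series.

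The cells came from spleens of wild-type C57BL/6 mice (substrain C57BL/6J in the methods) aged 8 to 10 weeks, and each replicate pooled cells from 12 mice. Lipopolysaccharide was given at 50 µg/ml and interleukin 4 at 2 ng/ml, a mixture that induces switching of the immunoglobulin heavy chain to IgG1. RAD21 was immunoprecipitated and sequenced beside an input control for each of the 3 replicates, and a further list was called on their merged reads. The culture was not sorted for switched cells at this time, so each list averages over whatever states the pooled cells were in. Peak lists hold no expression values, and the identity of the cells could not be checked against marker genes.

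RAD21 is the subunit that closes the cohesin ring, which holds DNA segments together within a chromosome and between sister chromatids. Cohesin is loaded onto chromatin, moves along it while extruding a loop, and is held at sites where the zinc finger protein CTCF is bound to its motif. Because the CTCF motif is not symmetric, every site has a direction, and loop anchors in mammalian cells usually hold motifs that point toward each other. Cohesin has also been found near active promoters and enhancers and at genes transcribed by RNA polymerase III, among them the 5S and transfer RNA genes.

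Replicate 2 stood apart from the other lists and did not enter the choice of sites. It held 5254 peaks against 1538 in replicate 1 and 1563 in replicate 3, and its median peak was 65 bp wide against 188 and 162 bp. Of its 5008 sites with no peak in the other replicates, 63.3% held a tandem repeat of at least 20 bp with a unit of 1 to 4 bases, and 1.62% matched the CTCF motif model described below. The pooled list of 5579 peaks includes the reads of replicate 2 as well as those of replicates 1 and 3. It is therefore no independent support for any site.

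The sequences at the sites fell into a few kinds, and the sites that ranked highest show them. Rank was set by the mean of a site's score percentile in replicates 1 and 3, so that site 1 is the highest of the 639. The first set gives the best match to the CTCF motif in 8 of the 20 highest sites, read on the strand of the motif. Capitals mark the 12 bases over the motif core.
Site 1, chr9:7603489-7603518, upstream of Mmp20: ctcacctcgCCACTAGATGACactcactcc
Site 2, chr3:121010676-121010705, intron of Alg14: tccatcctgCCACCAGGTGGCagcatacta
Site 10, chr3:121998568-121998597, near Dnttip2: ctctccctgTCAGCAGAGGGAgccagagca
Site 11, chr6:70702646-70702675, near Rpia: aggcagtggCCAGAAGGGAGCgctccagcc
Site 14, chr12:36941835-36941864, intron of 1700108M19Rik: agcagagaaCCACTAGATGGCagcagagcg
Site 15, chr2:39228828-39228857, upstream of Ppp6c: ctcttgcttCCACAAGGTGGCacccctgat
Site 16, chr11:60917980-60918009, upstream of Tnfrsf13b: accagagtgCCACTAGGTGGCgctagagga
Site 18, chr5:4962113-4962142, intron of Cdk14: tagaaacgaCCAGTAGGGGGAgcctagaga

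The second set shows what stood at other sites of the same high rank. Each is 60 bases about the centre of a site on the plus strand of mm9, with C and T in capitals, and each consists of short purine units repeated with small changes.
Site 5, chr10:100853019-100853078, distant from genes: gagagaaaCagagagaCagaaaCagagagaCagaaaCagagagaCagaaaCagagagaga
Site 20, chr4:34500991-34501050, intron of Akirin2: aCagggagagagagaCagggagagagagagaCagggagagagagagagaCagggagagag

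A further pair lay over annotated copies of the 5S ribosomal RNA gene. The annotated copy is in capitals, with 15 flanking bases on either side.
Site 9, n-R5s194, chr3:4338983-4339131, intergenic: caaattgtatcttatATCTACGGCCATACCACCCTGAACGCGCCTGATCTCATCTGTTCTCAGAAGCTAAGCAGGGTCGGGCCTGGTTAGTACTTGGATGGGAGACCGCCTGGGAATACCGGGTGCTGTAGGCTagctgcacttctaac
Site 17, n-R5s88, chr9:102030203-102030350, intron of Ephb1: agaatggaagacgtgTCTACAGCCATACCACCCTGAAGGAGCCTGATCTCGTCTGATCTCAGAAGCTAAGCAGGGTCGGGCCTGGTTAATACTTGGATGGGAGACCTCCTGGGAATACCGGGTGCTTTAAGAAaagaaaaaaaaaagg

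Most of the 639 sites held the CTCF motif close to their centre. With a fixed word of 12 bases, written as CCA, any 2 bases, AG, any 2 bases and GGC on either strand, 254 sites (39.75%, exact 95% CI 35.9 to 43.7) had a match within 100 bp of the centre. Windows of 200 bp tiling the genome held it in 1.03% of cases, and windows 1 kb to either side of the sites in 1.64%. The fixed word admits few of the known variants of the motif, as sites 1, 10, 11 and 18 show, since none of them holds it. A 30-base model of the motif was learned from 710 word-bearing sites of only one of the replicates. Its threshold let 5% of the windows 1 kb from all sites of only one replicate pass, with or without the word. The training sites all held the word's fixed bases by construction, so those bases of the model follow from the choice of sites. The model was matched by 521 of the 639 sites (81.5%, 78.3 to 84.5). In windows 1 kb away from the 639 sites the same model was matched in 4.70% of cases. The commonest bases of the model were ccaatgtggCCACcAGAGGGCActagagcc, with capitals where more than 50% of the sequences had that base.

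By the motif model, the share of motifs at sites of both replicates was close to that at sites of replicate 1 alone. It was above that at sites of replicate 3 alone. Over all 2462 sites of either replicate, 39.2% held the word and 79% matched the model. Sites of replicate 1 alone matched the model in 81.5% of cases and those of replicate 3 alone in 74.8% (71.9 to 77.5). The model was learned from the word-bearing sites of these classes (363 of 899 and 347 of 924). Their shares and the 79% therefore include its training sites, and the 639 sites hold none of them. The word was held by 40.4% and 37.55% (34.4 to 40.8) of the 2 classes, the latter interval including 39.75%. At the 521 sites, the model's match lay a median of 23 bp from the site's centre, and in 475 of them it was within 50 bp. It was on the plus strand in 269 sites and on the minus strand in 252. The strength of the match told little of the rank: across the 521 sites, Spearman's correlation between the model's score and the mean percentile was 0.0641.

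Outside the motif-bearing sites, 21 sites (3.29%, 2.05 to 4.98) were rich in purines or pyrimidines on 1 strand, meaning that at least 80% of the 200 bp about the centre were of one class, and none of the 21 matched the motif model. The share was 1.33% in windows 1 kb away, 0.890% at sites of replicate 1 alone and 4.00% at sites of replicate 3 alone. At the sites of replicate 2 alone it was 40.8%. A further 3 sites overlapped one of the 309 annotated copies of the 5S ribosomal RNA gene. The remaining 94 sites (14.7%) were of none of these kinds, and 8 of these 94 were in the 1 kb before a gene's start.

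The kinds differed in how they stood in replicate 2 and in the pooled list. All 21 purine- or pyrimidine-rich sites and all 3 sites over 5S genes had a peak in replicate 2, at a median percentile of 99.1 and 99.9 of that list's scores. Of the 521 motif-bearing sites, 54 (10.4%, 7.88 to 13.3) had a replicate 2 peak, at a median percentile of 11.55. Of the 94 sites of none of these kinds, 21 (22.3%, 14.4 to 32.1) had one, at a median percentile of 96.9. Among these 21, 13 were in tandem or otherwise repeated sequence. Over all members the share with a replicate 2 peak was 15.5% (99 sites), against 9.91% of the sites of either replicate. Repeated sequence moved with it: of the 200 bp about a purine- or pyrimidine-rich site, a median of 36.7% of the 32-base words occurred once in the genome, against 100% at motif-bearing sites. Its part in the scores was not tested.

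Among the 12 highest sites, 4 matched the motif model, 4 were purine- or pyrimidine-rich, 1 lay over a 5S gene and 3 were of none of these kinds. Site 1, 24694 bp upstream of Mmp20, which encodes the enamel protease enamelysin, scored 38.99 in replicate 1 and 28.05 in replicate 3, the 100th and 99.8th percentile of the 2 lists. Site 2, in an intron of Alg14, a subunit of the transferase that adds the second sugar in N-glycan assembly, scored 29.15 and 28.46. Neither was near the top of the pooled list, where they stood at percentiles 96.7 and 96.3.

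Site 3 scored 24.38 in replicate 1 and 31 in replicate 3 and was the highest peak of the pooled list, with a score of 175, and also the highest peak of replicate 2. Sites 5, 7 and 8, whose nearest starts were those of Mgat4c (291226 bp), March3 (8431 bp) and Cacna2d1 (102943 bp), were of the same kind, with scores of 21.34 to 24.38 in replicate 1, 22.83 to 26.04 in replicate 3 and 134.7 to 144 in the pooled list. Site 6, 119293 bp from the start of the cystatin gene Cst10, belonged with them in all but the threshold: 74.5% of its bases were of one class, and its pooled score was 174.6. Site 9, over the 5S copy on chromosome 3, scored 19.85, 25.61 and 158.4 in the 3 lists.

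The other members of the 12 had pooled scores between 20.12 and 35.27. Site 4 lay 573 bp upstream of 2610002J02Rik, with scores of 26.86 in replicate 1 and 24.43 in replicate 3. Site 10 lay 21251 bp from the start of Dnttip2, a factor of ribosome assembly. Site 11 was intergenic, 39573 bp from the start of Rpia, an enzyme of the pentose phosphate pathway. Site 12 lay 57422 bp upstream of Sv2b, a synaptic vesicle protein. Nearest genes were named from protein-coding genes only, so a gene of another type may lie nearer. In replicate 2 the peaks at sites 1, 4, 10 and 11 stood at percentiles 5.78 to 28.6, and sites 2 and 12 had none. High rank in replicates 1 and 3 was thus shared by sites at the top of the replicate 2 list and sites in its lower part.

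**Figure D1:**
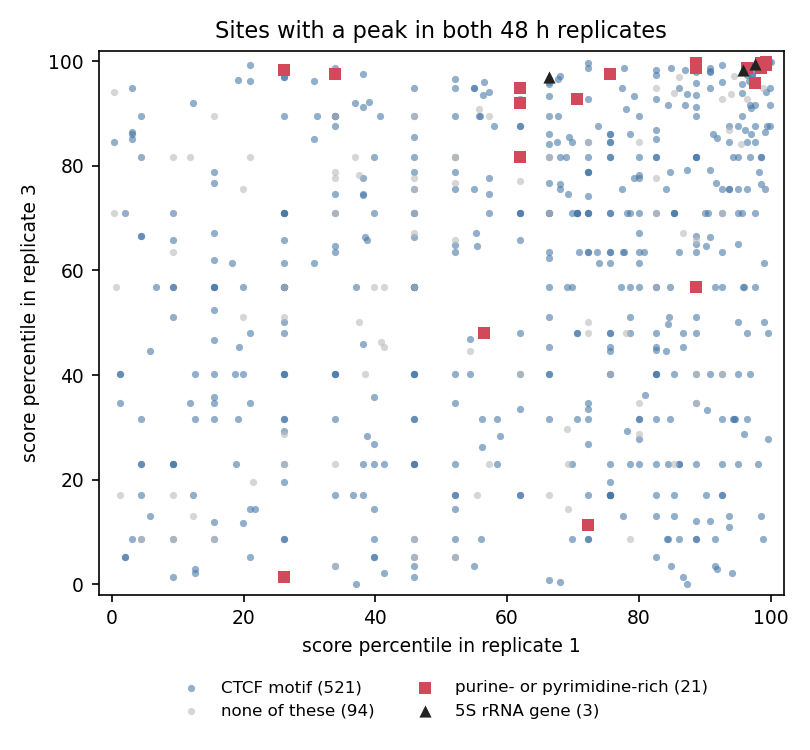
Score percentile of each of the 639 sites in replicate 1 (horizontal axis) and replicate 3 (vertical axis), coloured by the kind of sequence at the site; each point is 1 site. The motif-bearing sites fill the plane, while many of the 21 purine- or pyrimidine-rich sites and the 3 sites over 5S genes lie at the top.

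The order of the sites by score was only loosely shared by the replicates. Scores of the members ran from 4.33 to 38.99 in replicate 1 (median 10.26) and from 4.08 to 31 in replicate 3 (median 10.19). Spearman's correlation between them was 0.230 across the 639 sites, a description over sites of the same 2 libraries. A site's percentiles differed by a median of 23.6 between the lists, and 123 sites differed by more than 50. Leaving out the 52 sites that were purine- or pyrimidine-rich, over 5S genes, or in tandem or otherwise repeated sequence, the correlation was 0.193, and within those 52 it was 0.592.

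Members were nonetheless common among the highest peaks of each list. Of the 103 replicate 1 peaks at or above that list's 100th score, 84 were members, as were 78 of the 100 highest of replicate 3, although members made up 41.55% and 40.9% of the lists. Only 26 sites were in the highest 100 of both lists. The largest disagreements toward replicate 1 were in Unc45b (percentiles 94.2 and 2.14), in the 3' untranslated region of Slc36a2 (98.9 and 8.64) and 19393 bp upstream of Mki67, the gene of the proliferation marker Ki-67 (91.9 and 2.98). Toward replicate 3 they were near Vangl2 (0.293 and 94.2), in Armc9 (3.06 and 94.9) and 4410 bp upstream of Dpy30, a subunit of histone H3K4 methyltransferases (4.49 and 89.5).

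The pooled list held a peak at 635 of the 639 sites (99.4%, 98.4 to 99.8), compared with 81% of the sites of either replicate and 74.5% of the sites of only one of them. All 4 missing sites were low: in introns of Jakmip1 (rank 578) and Slc1a2 (rank 625), 21603 bp upstream of Gm2399 (rank 591) and 8421 bp upstream of Zfp3 (rank 603). Every one of the 100 highest sites was held.

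Being held did not mean being prominent. Members accounted for 642 of the 5579 pooled peaks (11.5%) and for 32 of the 100 highest. Of those 32 peaks, 18 were purine- or pyrimidine-rich and none matched the motif model, nor did any other of the 100 highest pooled peaks. By member site, 3 of the 32 were over 5S genes and 11 were of none of the kinds. The best-placed motif-bearing member, site 1, was 189th in the pooled list, and a motif-bearing member had a median pooled rank of 1806. Sites over 5S genes had a best pooled rank of 3. Peaks at which replicate 2 alone had support made up 18 of the 100 highest pooled peaks, 344 of the 500 highest (68.8%) and 39.2% of the whole list. Of the 100 highest, another 44 outside the members had a replicate 3 peak and 6 a replicate 1 peak.

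**Figure D2:**
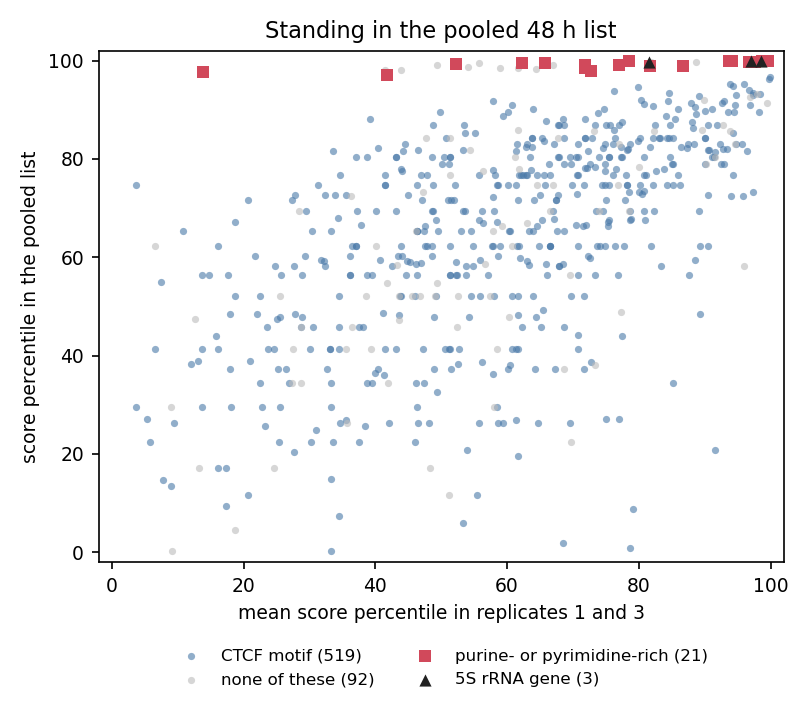
Mean score percentile in replicates 1 and 3 (horizontal axis) against score percentile in the pooled list (vertical axis) for the 635 sites the pooled list held, coloured by kind of sequence. The purine- or pyrimidine-rich sites lie between pooled percentiles 97.1 and 100 whatever their standing in the replicates, and no motif-bearing site is above 96.7.

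The 5 highest pooled peaks without a peak in replicate 1 or 3 all had one in replicate 2. They stood at ranks 31, 38, 42, 62 and 65 of the pooled list, near Abt1, Rybp, Cth and Ptpn1 and in an intron of Elmo1, and none of them held the CTCF word. The longest tandem run was 7, 18, 26, 61 and 51 bp in that order, so that 3 of the 5 reached the 20 bp used to define a repeat. By contrast, 937 of the 1381 pooled peaks with no peak in any replicate (67.8%, 65.3 to 70.3) matched the motif model, and these peaks stood low, at a median pooled percentile of 22.5.

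Neighbouring sites were compared for the direction of their motifs, since convergent motifs are the usual arrangement at loop anchors. Among the 521 motif-bearing sites there were 411 pairs of adjacent members with no other member between them. Over all distances, 115 pairs (28.0%, 23.7 to 32.6) converged, 107 diverged and 189 pointed the same way (46.0%, 41.1 to 50.9). At separations of 100 kb to 1 Mb the mix was different, with 49 of 116 pairs convergent (42.2%, 33.1 to 51.8), 31 divergent and 36 in the same direction (31.0%, 22.8 to 40.3). Beyond 1 Mb, 60 of 265 pairs converged (22.6%, 17.7 to 28.2) and 142 pointed the same way (53.6%, 47.4 to 59.7). Randomly ordered directions, with both strands about equally common, would give as many convergent as divergent pairs, and as many same-direction pairs as both together. The intervals of the convergent and same-direction shares include that mix over all distances and beyond 1 Mb, but not at 100 kb to 1 Mb. The intervals of the convergent shares and of the same-direction shares do not overlap between 100 kb to 1 Mb and beyond 1 Mb, but neighbouring pairs share sites, and the intervals cover counting error only.

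With the fixed word in place of the model, 13 of 31 pairs converged at 100 kb to 1 Mb (41.9%, 24.6 to 60.9) and 9 of 63 beyond 1 Mb (14.3%, 6.75 to 25.4). Below 100 kb the model gave 6 convergent and 13 divergent pairs of 30, too few to order.

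**Figure D3:**
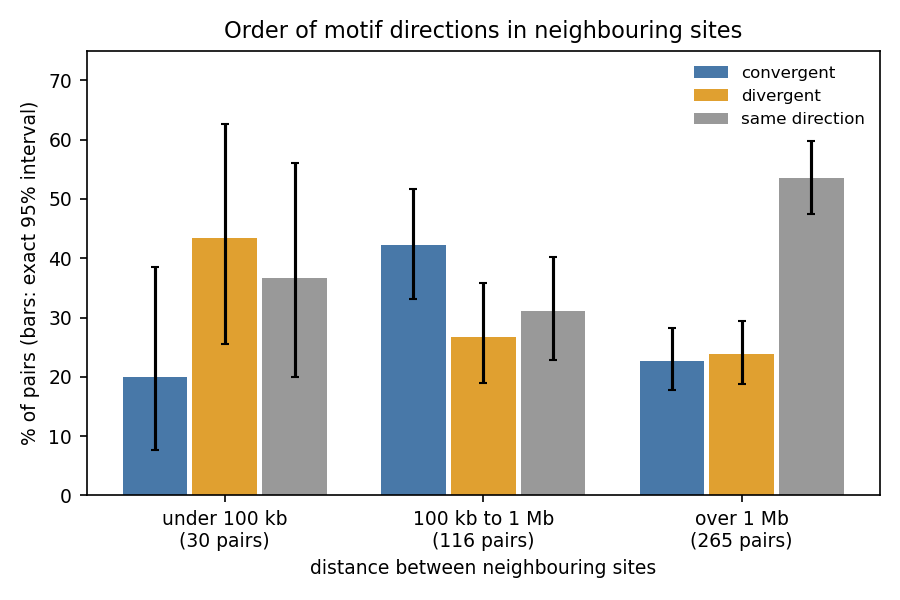
Percentage of adjacent pairs of motif-bearing sites whose motifs converge, diverge or point the same way (vertical axis), by the distance between the sites (horizontal axis); error bars are exact 95% intervals. Convergent pairs make up 42.2% at 100 kb to 1 Mb and 22.6% beyond 1 Mb.

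Sites lay upstream of genes more often than the genome's composition gives. Within 3 kb upstream of a protein-coding transcription start there were 70 sites (11.0%, 8.64 to 13.6), a 3.19-fold excess over the 3.43% of sequenced bases found there, and within 1 kb there were 27 (4.23%, 3.42-fold). The share within 3 kb over the sites of either replicate was 9.3%. The 3 kb after transcript ends held 7.83% of the sites, a 2.19-fold excess. Coding exons held 3 sites (0.470%, 0.0969 to 1.37) against 1.395% of sequenced bases. Introns held 201 sites and 423 lay outside protein-coding genes.

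The placement about the start was one-sided. Counting from the nearest start, 92 sites lay in the 5 kb before it and 39 in the 5 kb after it, and for the nearest 1 kb the counts were 27 and 5. These counts were not set beside the split over the sites of either replicate or over sequenced bases. The median distance to the nearest start was 19814 bp (95% interval 16908 to 22631), and the farthest site, the 5S copy on chromosome 3, was 704939 bp from Hnf4g.

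**Figure D4:**
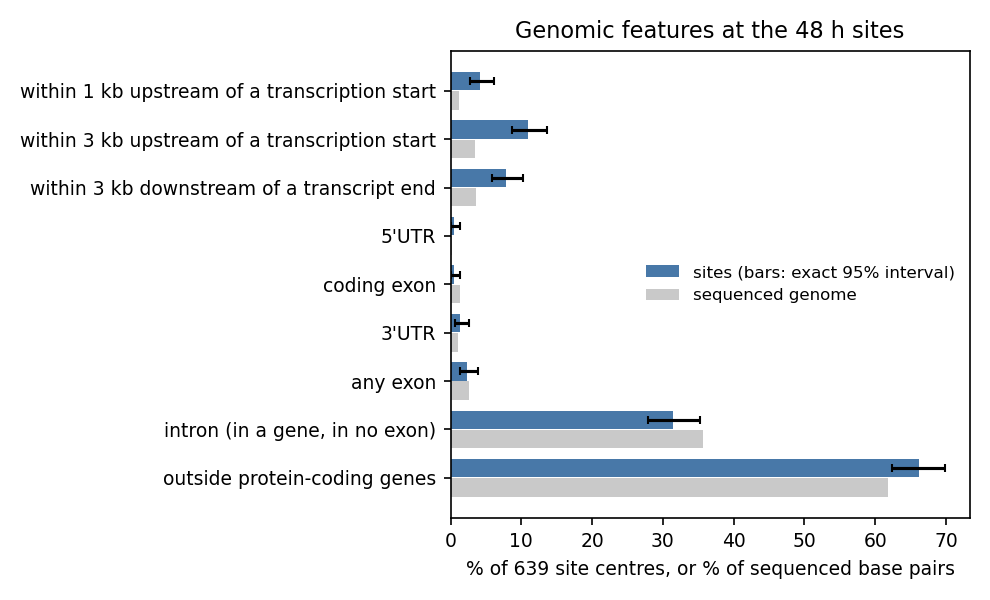
Percentage of the 639 site centres in each feature (blue, with exact 95% intervals) and percentage of sequenced base pairs in it (grey). Sites exceed the genome upstream of starts and after transcript ends.

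The 27 promoter-proximal sites had a median GC content of 56.5% against 50% at the other sites, and 19 of them matched the motif model (70.4%, 49.8 to 86.2) against 82.0% of the other 612. One of the 27 had a peak in replicate 2. After 2610002J02Rik (site 4), the highest were 100 bp upstream of Fam19a2, a secreted chemokine-like protein (site 21, scores 24.38 and 16.28), and 230 bp upstream of Slc39a13, the zinc transporter ZIP13 (site 26, scores 17.5 and 17.42). Next came A630001G21Rik (site 51) and Rab37, a GTPase of secretory vesicles (site 107, scores 10.26 and 18.72). Chd9, a chromatin remodeller (site 145), Amz2, a metalloprotease (site 158), and Cbwd1 (site 161) completed the 8 highest.
The sites at 2610002J02Rik, Amz2 and Cbwd1 did not match the motif model, and the match at A630001G21Rik is not shown. The Fam19a2 match scored 5.038 log2 odds, close to the model's threshold of 4.748. The motif matches at the other promoters, Fam19a2 among them, shown because they lie next to a start, were as follows.
Fam19a2, chr10:122700993-122701022: ccagatttaCCGCTAGAGGGAgacatagtc
Slc39a13, chr2:90910744-90910773: cagcagtggCCACACGGGGGCgcgcacggc
Rab37, chr11:115015106-115015135: atgcagtggCCAGCAGGGCGCgcccgagct
Chd9, chr8:93352694-93352723: atcttacggCCACTAGGTGGTgcctgcgct

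Genes of the B cell programme were read from 12 lists, by whether a site lay within the gene or 10 kb of it. Of all 22359 protein-coding genes, 2.25% had such a site. Of the 18 B cell transcription factors, 5 did (27.8%, 9.69 to 53.5). The genes of this list had a median length of 81336 bp against 15121 bp over all genes, which widens the window searched. Bcl6, the repressor of the germinal centre programme, had a pair of sites, 6373 bp after its start with scores of 9.86 in replicate 1 and 13.79 in replicate 3, and 2500 bp before it with scores of 4.99 and 9.68. Pou2f2, which encodes the octamer factor Oct-2, had an intronic site (10.16 and 11.01). Foxo1 had a site 5719 bp before its start (12.78 and 8.44), and Ebf1 one beyond its end (12.78 and 8.38). Pou2f1, which encodes Oct-1, had an intronic site at 7.69 and 7.13, and was chosen for naming after its values were seen.

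In the remaining lists few genes had a site. The B cell receptor list had 2 of 21, Cd22, an inhibitory coreceptor (site 120, 10.19 and 17.42), and Pik3cd, the catalytic p110δ kinase (site 538). Site 120 was intergenic, 20925 bp after the Cd22 start, and its nearest start was that of Ffar1 (2053 bp). The interleukin 4 list had 2 of 12, Cish, a cytokine-induced inhibitor of STAT signalling, with a site 1589 bp before its start (site 59, 13.75 and 16.7), and Fcer2a, the low-affinity IgE receptor CD23, whose 2 sites lay at the neighbouring Trappc5. Nfkbia, the NF-κB inhibitor IκBα, was the only one of 20 genes of the lipopolysaccharide and NF-κB list, with a site 6575 bp before its start (site 122, 11.45 and 13.43). E2f2 and Ccnd2, which encodes cyclin D2, were 2 of 25 cell cycle genes. H2-Ob was 1 of 13 genes of the MHC class II pathway, with a site 3768 bp before its start (site 96, 12.78 and 13.57).
The motif matches at some of these genes were as follows, with Pik3cd the weakest and Foxo1 the strongest of those listed, not in order of strength.
Pik3cd, chr4:149084890-149084919: gctgtccctCCTCTAGGTGGCtccctagga
Cish, chr9:107196745-107196774: gaaggatcgCCACTGGGTGGCagtgtgggc
Nfkbia, chr12:56600242-56600271: caaaagtggCCAGAAGATGTCgctgcagac
Foxo1, chr3:52066497-52066526: tctcaatgaCCAGAAGGTGGCagcggatcc
Ccnd2, chr6:127097879-127097908: acatgtctgCCACTAGGTGGCagcacagac
H2-Ob, chr17:34372106-34372135: tttacatggCCACCAGATGGCaccagactc

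No site lay at the 14 plasma cell genes, the 20 class switch and break repair genes or the 16 cohesin and regulator genes. None lay at the 14 homing genes, the 14 imprinted genes found among protein-coding genes or the 40 ribosomal protein genes. The listed imprinted genes H19, Kcnq1ot1 and Meg3 were not among the protein-coding genes and were not searched. For the shortest of these lists a count of 0 allows a share of up to 23.2%, and for the ribosomal protein genes up to 8.81% (exact 95% intervals). These intervals include 2.25%. A gene without a site here may still have had a peak in one of the replicates, and the absence of a peak is not the absence of cohesin. Outside the lists, and chosen after their values were seen, site 16 lay 22257 bp upstream of Tnfrsf13b, the receptor TACI (19.73 and 18.89), and site 19 lay 1505 bp upstream of Arid3a, which encodes the B cell factor Bright (21.49 and 16.7).

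The sites were sparse and unevenly spread. The median distance from one to the next was 1930836 bp (95% interval 1695776 to 2353522), with a range from 1538 bp to 33058048 bp, and 82 sites (12.8%, 10.3 to 15.7) had another within 100 kb. Of the closest pairs, the first was nearest to the start of B4galt5, a galactosyltransferase, with mean percentiles of 8.98 and 92.6. The next was the pair on the heavy chain side of Tmem121 described below, 2262 bp apart, and then one in Gm20388 near Cox4i1, 3199 bp apart. The longest gaps ran from Dcbld2 to Ifnar1 on chromosome 16, from Lias to Cxcl1 on chromosome 5 (25518103 bp) and from Ccdc110 to March1 on chromosome 8 (21944954 bp).

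Only 4 windows of 100 kb held 3 sites. The tightest spanned 46721 bp on chromosome 8 at Trappc5 and Clec4g, a gene cluster of C-type lectins that includes Fcer2a. In another, on chromosome 1 (60586 bp), all sites were intergenic. Their nearest protein-coding start was that of Fasl, the death ligand, at 39952 to 100538 bp. The others, by nearest start, were at Fam76a and Ahdc1 (63599 bp) and at Tmem38b (73959 bp) on chromosome 4. By gene, Arhgap26 on chromosome 18, a GTPase-activating protein, held 3 sites, and Tmem38b, Scn4a, AF064781, Bcr, Sept9 and Hs3st1 held 2 each. The gene model Gm20388, which covers several other genes, held 4. One of the Tmem38b sites was the third 5S copy, n-R5s185 (site 118).

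Density per chromosome varied with the density of CTCF words. Chromosome 11 had the most sites per sequenced megabase (0.446), together with the most words (79.4 per Mb). Over the 19 autosomes and X, Spearman's correlation between sites and words per megabase was 0.768 and Pearson's 0.844, and for genes per megabase these were 0.740 and 0.705. These describe 20 chromosomes of the same lists, with base composition and gene content varying together.

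The X chromosome had 3 sites (0.0185 per Mb) against 0.266 per Mb over the autosomes, the lowest of which had 0.164. It held 37.3 words per Mb, and the autosomes 43.0 to 79.4. X made up 6.34% of the sequenced bases but 0.715% of the peaks of replicate 1 (11 peaks), 0.960% of those of replicate 3 (15 peaks) and 4.95% of those of replicate 2 (260 peaks). The sex of the mice is not given in the sources used here, and its part was not tested. The 3 sites lay 66892 bp upstream of Egfl6, 4149 bp upstream of Rps6ka3 and 19478 bp upstream of Tmem29. The one near Rps6ka3 did not match the motif model and stood at the 97.7th percentile of replicate 2.

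**Figure D5:**
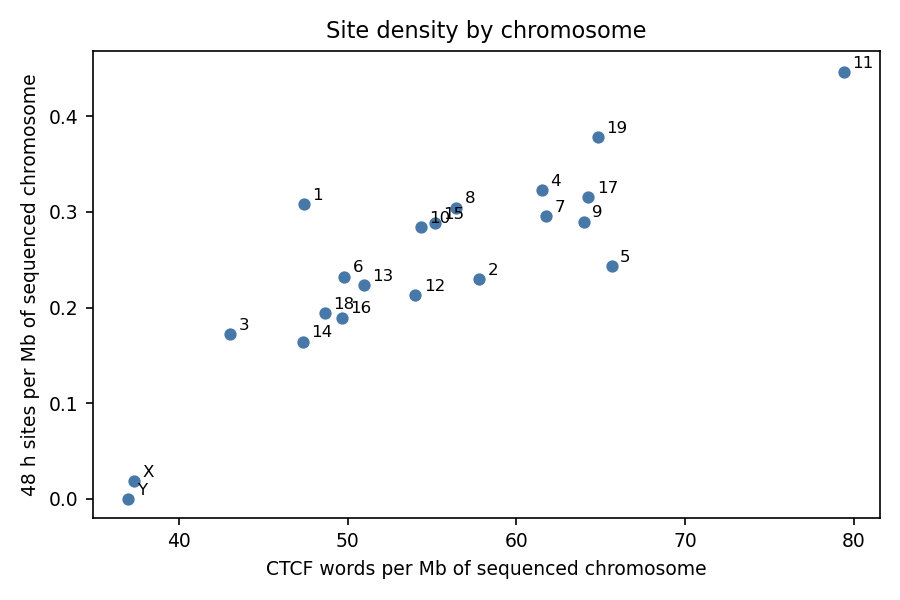
Sites per sequenced megabase (vertical axis) against CTCF words per sequenced megabase (horizontal axis), each point 1 chromosome labelled by its name. Chromosome 11 is highest on both axes, and X (0.0185) and Y (0) are lowest in sites.

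At the immunoglobulin heavy chain locus, taken as the 2962572 bp from Mta1 to Zfp386 on chromosome 12, 2 of the 639 sites were found, both on the side of the constant genes. The region downstream of the constant genes is known to hold the 3' regulatory region and a group of CTCF sites beyond it. The first site, chr12:114460310-114460488 (rank 477), matched the motif model, and the second, chr12:114462561-114462760 (rank 527), did not. The nearest immunoglobulin gene found in the annotation was listed as Gm900, 48995 and 46723 bp away. Whether another constant gene lies nearer was not tested. In the pooled list they stood at percentiles 78.0 and 72.4. Of the other 6 pooled peaks in the span, 2 lay close by with support from replicate 3 and 4 lay elsewhere in it with support from replicate 2 alone.

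The rule's threshold set few sites aside. The peaks of a member overlapped by 42 to 293 bp, with a median of 159 bp, and the smallest overlaps were 42, 48 and 50 bp. The nearest pairs that failed were 111, 243 and 331 bp apart, followed by 1620 bp.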

How the data were processed

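Peaks were called by the authors: reads were aligned to mm9 with Bowtie2, an equal number of unique positions was drawn from each set, and MACS 2 was run at a false discovery rate of 0.05 on each replicate and on merged replicates. The deposited lists give coordinates and a score, whose statistic the sources used here do not name, so scores were compared only as percentiles within a list. Read counts were not given, and depth per peak is unknown. Coordinates are 1-based mm9, with genes from GENCODE M1 (protein-coding transcripts) and sequence from NCBIM37, read with pysam 0.24.0 in Python 3.11.15 (numpy 2.4.6, scipy 1.17.1, pandas 2.3.3, numba 0.67.0). The site centre placed a site in a feature.

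Site finding, word search, motif model and repeat count were tested on simulated data. Intervals are exact 95% binomial intervals, or order-statistic intervals for medians. They cover counting error only, and sites are not replicates, so no p-value was computed. The motif model used log2 odds with a pseudocount of 1 per base.

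The sites and gene lists were chosen with earlier results of these data known, and the motif model and the kinds of sequence after the sites had been ranked. Genes were named by rule: the 12 highest sites, the 8 highest within 1 kb upstream of a start, up to 4 genes per list, the 3 densest windows, closest pairs and longest gaps, the 5 highest sites or pooled peaks not shared, the 3 most discordant sites each way, and every site in the heavy chain span. Also named, after their values were seen, were the sites ranked 14 to 20, Pou2f1, the fourth window of 3 sites, genes with several sites, and the sites on X and at 5S copies. Spi1, Mzb1 and Syk were matched by older symbols.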

Additional observations from a re-analysis of the deposited data

How the results depend on the processing

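No paired analysis was possible because no result compares groups of samples. Requiring both peaks to overlap by 50%, or joining peaks within 500 bp, moved no value outside its interval. With the upper scores of each list only, 295 sites remained, of which 100% were in the pooled list and 22.0% in replicate 2, and the median distance to the next site was 4865678.5 bp. When any 2 of the 3 replicates sufficed, 31.1% had a replicate 2 peak, by construction, and 34.8% held the CTCF word. Using one list in place of both, by leaving out either replicate, gave 1538 to 1563 sites, 84.2% to 85.35% in the pooled list, 9.23% to 12.7% in replicate 2 and 616072 to 670788 bp between sites. The shorter word was held by 50.9% and the motif model was matched by 81.5%. With transcripts of every type, 16.1% lay within 3 kb upstream of a start and the median distance to a start was 10606 bp. Without the purine- or pyrimidine-rich and 5S sites, 12.2% had a replicate 2 peak. The motif model and this last setting were chosen after seeing the data. The cause of these changes was not tested where the setting's construction does not give it.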
